A study of Rattus norvegicus with 14 samples.

Results

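Tdo2, Ddc and Aadat, genes of liver enzymes that handle aromatic amino acids, were followed on Affymetrix arrays in rats fed orotic acid. They were chosen by gene symbol and are 3 of 2669 genes with a single symbol on the array, read by 4 of 4478 probe sets that are not controls. A probe set is a group of short probes for 1 transcript. Tdo2 and Ddc had 1 probe set each and Aadat had 2. Tdo2 and Ddc had drawn attention by their difference between days 1 and 14 of feeding in Kyoto rats. How Aadat came to be chosen is not known. That time course, and each comparison that shares its Kyoto day 1 or day 14 arrays, is therefore given as a description with no test.

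Orotic acid, a precursor of pyrimidines, makes the rat liver fatty when it is added to the food. The 14 arrays held total RNA of the left lateral lobe from 6 groups. On plain chow were 3 Wistar controls. On chow with 1% orotic acid were 2 Wistar rats at day 3, 3 Wistar rats at day 14, and 2 rats each at days 1, 3 and 14 of a strain that the labels call Kyoto. The labels used here state neither age nor sex. Fed Wistar rats at day 1 and unfed Kyoto rats were not analysed here. No Kyoto level can therefore be set against an unfed liver of its own strain. The labels do not state that each array was a separate animal, so p-values measure the spread between these samples, which may be technical.

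Tdo2 encodes tryptophan 2,3-dioxygenase, the heme enzyme that opens the indole ring of tryptophan and starts the kynurenine pathway in hepatocytes. Aadat encodes aminoadipate aminotransferase, also called kynurenine aminotransferase II, which turns kynurenine into kynurenic acid and also acts in lysine breakdown. Ddc encodes aromatic L-amino acid decarboxylase, which makes dopamine from DOPA and serotonin from 5-hydroxytryptophan and is present in liver and kidney as well as in neurons. Tdo2 and several other liver enzymes of amino acid breakdown are known to be induced by glucocorticoids.

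The promoter windows of the 3 genes are shown because Tdo2 and Ddc were both higher at day 14 than at day 1 in Kyoto rats while Aadat was not. Each holds 300 bases, from 250 before to 50 after an annotated start, on the minus strand, from RefSeq on the GRCr8 build. The Tdo2 window is chr2:169585537-169585836 and the gene spans chr2:169567656-169585586. The Ddc window is chr14:90682734-90683033, the farthest upstream of 3 annotated starts of a gene that spans chr14:90592304-90682830. Which start the liver uses is not known from these data. The Aadat window is chr16:34555131-34555430, inside the annotated gene at chr16:34520236-34566388. Capitals mark matches to any of 7 searched motifs, and all other bases are in lower case.
Tdo2: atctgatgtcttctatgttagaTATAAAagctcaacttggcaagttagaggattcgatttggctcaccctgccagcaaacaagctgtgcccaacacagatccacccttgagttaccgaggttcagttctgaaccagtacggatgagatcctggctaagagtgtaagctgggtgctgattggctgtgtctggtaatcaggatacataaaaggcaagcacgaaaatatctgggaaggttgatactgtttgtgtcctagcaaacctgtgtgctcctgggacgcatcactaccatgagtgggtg
Ddc: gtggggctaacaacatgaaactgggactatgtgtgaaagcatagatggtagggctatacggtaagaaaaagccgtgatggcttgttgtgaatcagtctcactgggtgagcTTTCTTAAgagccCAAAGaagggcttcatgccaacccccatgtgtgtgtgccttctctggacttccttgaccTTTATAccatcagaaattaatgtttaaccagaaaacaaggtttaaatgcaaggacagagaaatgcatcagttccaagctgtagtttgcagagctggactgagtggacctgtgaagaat
Aadat: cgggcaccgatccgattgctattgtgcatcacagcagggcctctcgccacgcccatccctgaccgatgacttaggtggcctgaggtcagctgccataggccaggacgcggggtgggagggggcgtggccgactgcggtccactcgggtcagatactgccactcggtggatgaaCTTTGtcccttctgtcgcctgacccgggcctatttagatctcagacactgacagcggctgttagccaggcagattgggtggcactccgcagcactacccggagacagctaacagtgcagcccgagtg

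Both strands were searched, and no 2 matches overlapped in the windows printed. The Tdo2 window held a single match, a TATA box (TATAAA) whose first base lies 228 bases before the start; 14.2% of all 33469 promoter windows of this length hold one. The Ddc window held the HNF4 core (CAAAG), which 53.8% of all windows hold. It also held a C/EBP match and a TATA box, both in antisense. The letters searched for C/EBP were TTNNGNAA, found in 41.3% of all windows. The windows at the other Ddc starts differed: the next held only an HNF4 core, and the last held 2 HNF4 cores and a C/EBP match, and neither held a TATA box. The Aadat window held the HNF4 core in antisense and no other match. No motif was found in all 3 windows. The glucocorticoid receptor core, searched as TGTTCT and present in 20.7% of all windows, was in none of them. The HNF1 core, searched as GTTAAT, is in 7.45% of all windows and was also in none. The same held for the FOXA core (TGTTTAC, in 3.78% of all windows). It held too for the cyclic AMP element core (TGACG, in 21.2%). The windows differed in base composition, with 47% G and C in Tdo2, 44.7% in Ddc and 62.3% in Aadat.

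The arrays had been scaled before deposit, and the median deposited signal of an array, taken over complete rows, lay between 269.5 and 285.7. The array labelled Wistar control 2 stood apart from its label. Over 79 features that separated fed Kyoto from fed Wistar livers, Tdo2, Ddc and Aadat not among them, it lay at 0.938 on a scale from 0 (fed Wistar mean) to 1 (fed Kyoto mean), against 0.0898 and 0.0689 for Wistar controls 1 and 3. Kyoto day 1 replicate 1 correlated least with the rest, at a median r of 0.895 across genes. Where a difference of Tdo2, Ddc or Aadat depends on either array, it is given with and without that array. Of the other pathway genes this was done only for Kmo, Maoa and Maob. All other genes and list medians are given with both arrays in, and some may depend on them. Of 10 listed hepatocyte markers 9 were on the array, none was at the floor throughout a group, and their summed signal ranged from 165516 to 186695 over all arrays. In pieces of whole liver, fewer cells of a type and less RNA per cell cannot be told apart.

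All levels below are normalized probe set signals on a linear scale, and all differences are in log2 units with the standard error of a limma fit across 1909 features. A difference was called at a Benjamini-Hochberg adjusted p under 0.05. Whether the arrays of groups overlap is given as a description only. The share of all features whose groups did not overlap was not counted, and groups this small can separate by chance. Each of the 3 genes passed the filter on low signals, and none of their 4 probe sets reached the floor of 115 on any array.

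Tdo2 was lowest in Kyoto livers at day 1, overlapped the Wistar range at day 3 and lay within or above it at day 14. Its signal at day 1 of feeding was 1564 and 2192 in the 2 Kyoto livers. At day 3 it was 2733 and 2232, and at day 14 it was 4052 and 3580. The 3 Kyoto groups did not overlap, and both day 14 arrays lay above all the Wistar controls. The day 14 mean was 2.06-fold the day 1 mean (1.04 ± 0.23 log2, 2 against 2 arrays), of which 0.42 ± 0.23 lay between days 1 and 3 and 0.63 ± 0.23 between days 3 and 14. This is the contrast that drew attention to the gene, and 0.0524% of all features were called in it. Without Kyoto day 1 replicate 1, the lower of the pair, the day 14 difference from day 1 was 0.80, and without replicate 2 it was 1.29. The day 3 difference from day 1 was 0.17 and 0.66 without the same arrays in turn.

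In Wistar livers Tdo2 varied less. The signal was 3196, 2900 and 3438 in the 3 controls, 3730 and 3801 at day 3, and 3111, 2576 and 2645 at day 14. Day 3 arrays lay above every control array and day 14 arrays overlapped the controls. The difference from control was 0.25 ± 0.21 at day 3 (limma adjusted p = 0.744, 2 against 3 arrays) and -0.20 ± 0.19 at day 14 (adjusted p = 0.992, 3 against 3 arrays). The 95% intervals were -0.21 to 0.71 and -0.61 to 0.22. Scaling mattered most at day 3: the median difference of all features from control was -0.039 as reported, -0.18 as the authors scaled the signals and -0.19 with each array scaled to 1 median. The day 3 value of Tdo2 changed sign with the scaling: it was -0.052 with the signals as the authors scaled them and -0.067 with each array scaled to 1 median. From day 3 to day 14 the Wistar difference was -0.44 ± 0.21 (adjusted p = 0.994), with no overlap between the groups. No feature was called in any of these 3 Wistar comparisons (0% of 1909 by limma); unadjusted p-values under 0.05 numbered 200 for day 3 against control, 99 for day 14 against control and 85 for day 14 against day 3.

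At day 3 of feeding, the time point shared by both strains that uses no Kyoto day 1 or day 14 array, Tdo2 was 1.52-fold lower in the mean of Kyoto than of Wistar livers. The difference was -0.61 ± 0.23 (95% interval -1.11 to -0.10, limma adjusted p = 0.281, 2 against 2 arrays) and was not called, where 4 features were (0.21%). Both Kyoto arrays lay below both Wistar arrays. With 1 array left out at a time the difference ran from -0.76 to -0.46. At day 14 the order was the other way round, with both Kyoto arrays above all 3 Wistar arrays and a difference of 0.46 ± 0.21, which draws on the Kyoto day 14 arrays and has no test here (0.681% of all features were called in that comparison). From day 3 to day 14 Tdo2 thus differed by 0.63 in Kyoto and by -0.44 in Wistar livers. The gap between these 2 changes was 1.07 ± 0.32, and 0.77 with the signals as the authors scaled them or with each array scaled to 1 median.

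**Figure D1:**
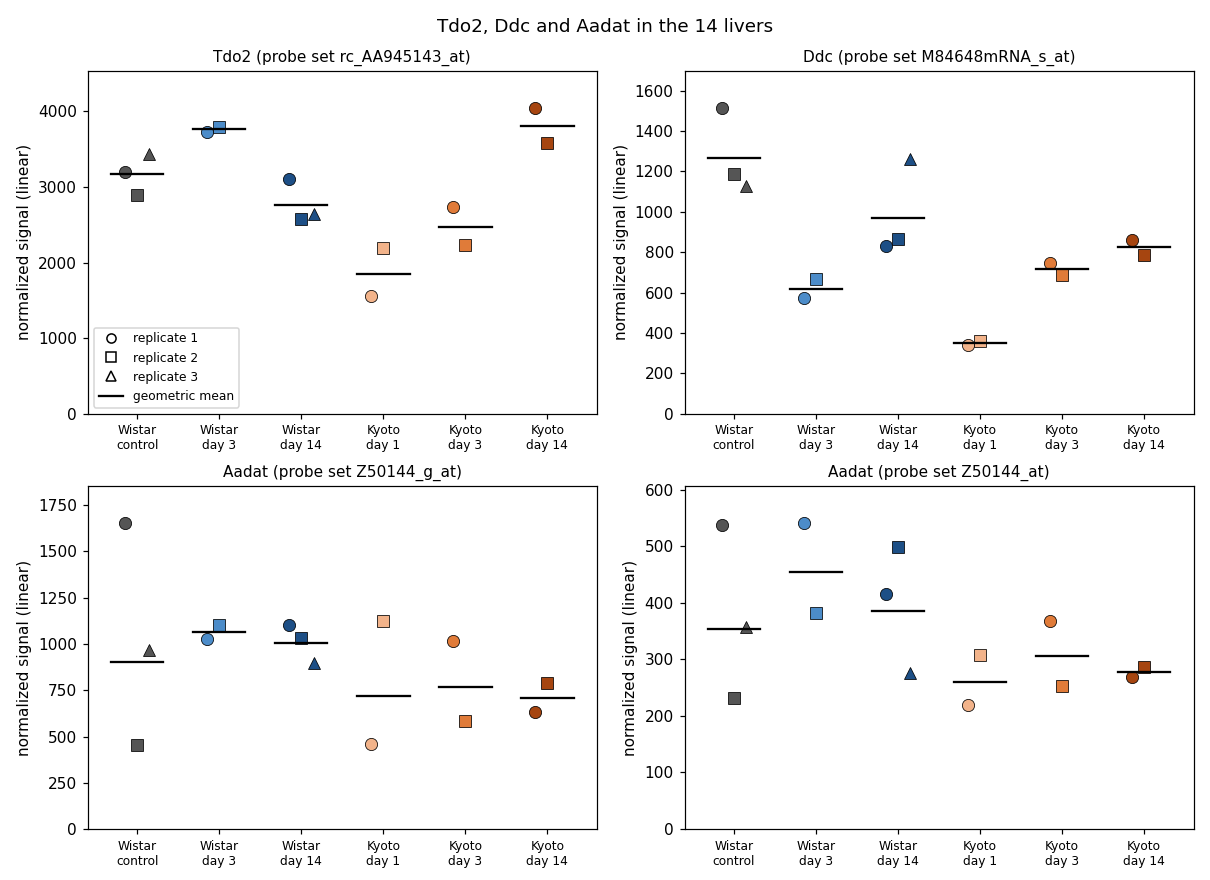
Normalized signal (linear scale, from 0) of the 4 probe sets of Tdo2, Ddc and Aadat in each of the 14 livers, by group on the horizontal axis; each symbol is 1 array, its shape is the replicate number, and the bar is the geometric mean. Tdo2 runs from 1564 and 2192 at Kyoto day 1 to 4052 and 3580 at day 14, Ddc is lowest at Kyoto day 1 (339 and 361), and Aadat spreads widely within Wistar controls (455 to 1655 on its brighter probe set).

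Ddc had the widest range of the 3 genes, 4.47-fold from the lowest to the highest array. It was highest in unfed Wistar livers, at 1517, 1187 and 1127, and the array labelled Wistar control 2 was the middle one. In Wistar livers at day 3 of feeding it was 572 and 667, and at day 14 it was 830, 865 and 1261. Only 1 of 11 fed livers, Wistar day 14 replicate 3, reached the control range. Over all features that array was most like Wistar control 3 (r = 0.970 across genes), both had blank rows in the deposited table and neither had a lot batch in its label. The only other array with blank rows was Kyoto day 1 replicate 1, with 374. The only other array without a lot batch was Wistar day 3 replicate 2, where Ddc read 667.

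At day 3 the Ddc mean in Wistar livers was 2.05-fold below control (-1.04 ± 0.24 log2, 95% interval -1.56 to -0.51, 2 against 3 arrays). The groups did not overlap, and the unadjusted p was 8.28e-04, but over all features the difference did not pass (limma adjusted p = 0.122, where 0% of features were called). With array weights, which let limma count noisier arrays less, it passed (-0.997, adjusted p = 0.0333). The adjusted p over all alternatives ran from 0.0333 to 0.676. Leaving out 1 array at a time gave differences from -1.15 to -0.90, so the direction did not rest on the array labelled Wistar control 2. At day 14 the Wistar difference from control was -0.39 ± 0.22 (95% interval -0.86 to 0.08, adjusted p = 0.992, 3 against 3 arrays), and -0.58 without Wistar day 14 replicate 3. From day 3 to day 14 it was 0.65 ± 0.24 (adjusted p = 0.994), with no overlap between the groups, and 0.46 without that array.

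In Kyoto livers Ddc was lowest at day 1, at 339 and 361, below every other array of the series. It was 749 and 690 at day 3 and 860 and 789 at day 14, so the step came between the first 2 time points. The difference from day 1 was 1.04 ± 0.27 at day 3 and 1.24 ± 0.27 at day 14, a 2.05-fold and a 2.35-fold higher mean, while days 3 and 14 differed by 0.20 ± 0.27. The day 14 value ran only from 1.17 to 1.30 with 1 array left out at a time. The highest Kyoto array, at 860, lay below all 3 unfed Wistar arrays. At day 3 the strains differed by 0.22 ± 0.27 (95% interval -0.35 to 0.79, limma adjusted p = 0.761, 2 against 2 arrays), with both Kyoto arrays above both Wistar arrays. At day 14 they differed by -0.23 ± 0.24 and overlapped, and by -0.040 without Wistar day 14 replicate 3. Against day 1, Kyoto day 3 thus stood at 1.04 for Ddc (0.97 or more with any 1 array left out) and at 0.42 for Tdo2 (0.17 to 0.66 with 1 array left out), with day 14 at 1.24 and 1.04.

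Aadat showed no ordered time course in either strain and had the largest spread within groups, a standard deviation of 0.61 log2 against 0.18 for Tdo2 and 0.22 for Ddc. On its brighter probe set the Wistar controls read 1655, 455 and 969. The low value is that of the array labelled Wistar control 2, and it lay below every other array of the series. The fed Wistar livers were close together, at 1026 and 1102 on day 3 and 1103, 1033 and 899 on day 14. Kyoto livers read 461 and 1123 at day 1, 583 and 1017 at day 3, and 635 and 787 at day 14. The low day 1 array is Kyoto day 1 replicate 1, and all Kyoto groups overlapped each other.

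The dimmer Aadat probe set read 537, 232 and 358 in Wistar controls, 541 and 383 in Wistar livers at day 3, and 415, 499 and 276 at day 14. In Kyoto livers it was 220 and 307 at day 1, 368 and 253 at day 3, and 268 and 287 at day 14. The 2 probe sets were described by r = 0.845 (Spearman 0.837) over the 14 arrays; both read the same transcript, so they share each array's RNA. Wistar control 2 was low on both.

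No tested Aadat difference passed. Against Wistar control it was 0.24 ± 0.47 at day 3 (95% interval -0.76 to 1.24, limma adjusted p = 0.909) and 0.16 ± 0.42 at day 14 (-0.73 to 1.06, adjusted p = 0.992), and between Wistar days 3 and 14 it was -0.077 ± 0.47 (-1.08 to 0.93, adjusted p = 0.994). Without the array labelled Wistar control 2 the first pair turned to -0.25 and -0.33, so neither direction against control stands without it. At day 3 the Kyoto mean was 1.38-fold lower than the Wistar mean (-0.47 ± 0.51, 95% interval -1.56 to 0.63, adjusted p = 0.723), with no overlap, but Kyoto day 3 replicate 1 at 1017 was next to Wistar day 3 replicate 1 at 1026, and without Kyoto day 3 replicate 2 the difference was -0.065. At day 14 the Kyoto mean was again lower, by -0.51 ± 0.47. Over the Kyoto course the difference between days 1 and 14 was -0.025 ± 0.51. It was -0.67 without Kyoto day 1 replicate 1 and 0.62 without replicate 2. Of 6 Kyoto livers, 4 lay below the lowest of 5 fed Wistar livers.

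Ranked by group mean, Tdo2 ran from Kyoto day 1 through Kyoto day 3, Wistar day 14, Wistar control and Wistar day 3 to Kyoto day 14. Of these neighbours, Kyoto day 3 and Wistar day 14, Wistar day 14 and control, and Wistar day 3 and Kyoto day 14 had overlapping arrays. Ddc ran from Kyoto day 1 through Wistar day 3, Kyoto day 3, Kyoto day 14 and Wistar day 14 to Wistar control. Its lowest group lay 0.82 log2 under the next, and the other gaps were 0.20 to 0.39. Kyoto day 14 and Wistar day 14, and Wistar day 14 and control, had overlapping arrays. Aadat ran from Kyoto day 14 through Kyoto day 1, Kyoto day 3, Wistar control and Wistar day 14 to Wistar day 3, and every pair of neighbours overlapped.

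**Figure D2:**
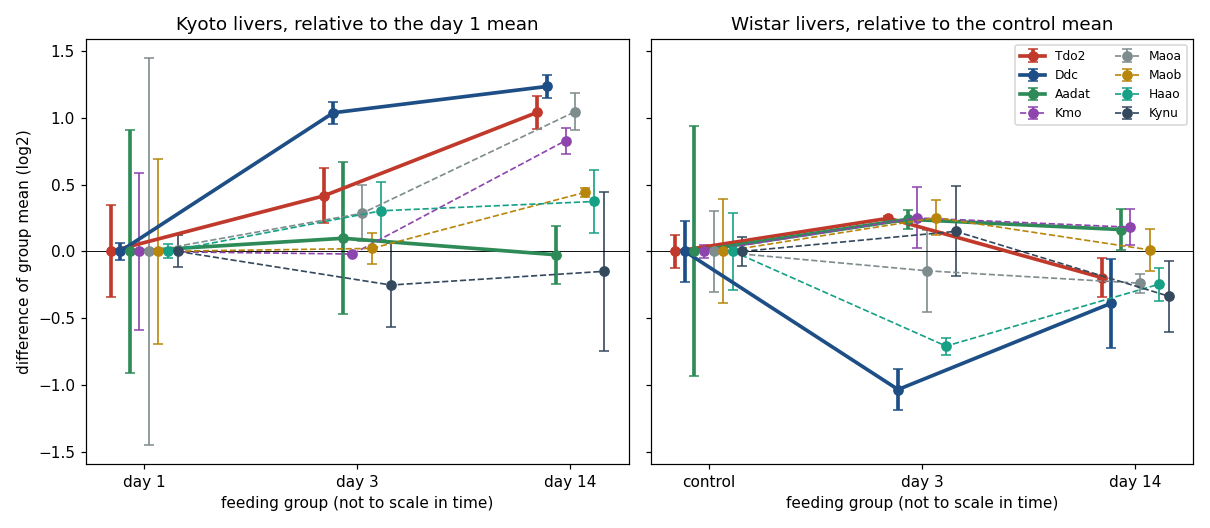
Group mean minus the first group of each strain (log2, vertical axis) for Tdo2, Ddc, Aadat and 5 other pathway genes, with Kyoto livers relative to day 1 on the left and Wistar livers relative to control on the right; whiskers are the SD of the group's arrays and the time axis is not to scale. Ddc is 1.04 above its day 1 level at Kyoto day 3 and 1.24 at day 14, Tdo2 reaches 1.04 at day 14, and in Wistar livers Ddc is -1.04 at day 3.

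The rest of the route was read from a list of 49 genes of tryptophan, phenylalanine, tyrosine and lysine breakdown, of which 23 were on the array with a single symbol and 21 were tested, the 3 genes above included. Of the 18 genes other than Tdo2, Ddc and Aadat, none passed in any of the 9 comparisons, upwards or downwards. Over all features the share called ran from 0% to 0.681%, so few calls were possible for any list. From day 1 to day 14 in Kyoto livers 12 of the 21 had a higher mean and 9 a lower one, with a median of 0.21 log2 against -0.00089 over all features; without Tdo2, Ddc and Aadat it was 10 of 18 with a median of 0.14. From day 3 to day 14 in Kyoto livers 18 of 21 were higher, with a median of 0.21 against -0.020 over all features, and 15 of 21 were higher under either other scaling. Of all 1909 features 904 were higher as reported, 839 as the authors scaled the signals and 863 with each array scaled to 1 median. The counts of listed genes describe the list and are not a test of it, and both contrasts share the Kyoto day 14 arrays. In Wistar livers at day 3, 12 of 21 were above control (median 0.14), but 6 of 21 under either other scaling. There 862 of all 1909 features were above control as reported, 632 as the authors scaled the signals and 601 with each array scaled to 1 median.

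Beyond the ring-opening step, Kmo, the kynurenine 3-monooxygenase, was low in early Kyoto livers as Tdo2 was. Its signal was 556 and 989 at Kyoto day 1, from 728 to 735 at day 3, and from 1257 to 1383 at day 14, where it lay within the range of Wistar livers (1092 to 1499). The day 14 to day 1 difference was 0.83 ± 0.28, and 0.41 without Kyoto day 1 replicate 1. At day 3 it differed between strains by -0.87 ± 0.28 (limma adjusted p = 0.192, 2 against 2 arrays), where 8 of the 21 listed genes were higher and 13 lower in Kyoto livers (median -0.13, against 0.051 over all features). Maoa and Maob, at -0.77 ± 0.47 and -0.77 ± 0.33, lay on the same side as Tdo2 and Kmo. Kyat1 (0.79 ± 0.27), Got1 (0.63 ± 0.33), Slc3a2 (0.53 ± 0.32) and Haao (0.50 ± 0.23) lay on the other side, and none of these passed.

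Kynu, the kynureninase, and Haao, the enzyme that makes the precursor of quinolinic acid, took other courses. Kynu differed by -0.15 ± 0.30 between days 1 and 14 in Kyoto livers. Haao was 0.37 ± 0.23 higher in the mean at day 14 than at day 1, and in Wistar livers at day 3 it differed from control by -0.71 ± 0.21 (adjusted p = 0.248). Kyat1, another kynurenine aminotransferase, read 298 and 330 in Wistar livers at day 3 against 485 to 828 in controls, a difference of -0.93 ± 0.25 (adjusted p = 0.241). Both day 3 arrays lay below all 3 controls, which was not so for Aadat. Kyat1, Gchfr and Slc3a2 were chosen for mention after their values were seen.

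Among genes on the amine side, Maoa and Maob, the monoamine oxidases that degrade the products of Ddc, had means 1.05 ± 0.47 and 0.44 ± 0.33 higher at day 14 than at day 1 in Kyoto livers. Both values rest on Kyoto day 1 replicate 1, whose Maoa signal was 199 against 824 on replicate 2. Without it the differences were 0.023 and -0.047. Aldh2, an aldehyde dehydrogenase that acts after them, differed by -0.026 ± 0.26.

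On the phenylalanine and tyrosine side, no difference over the Kyoto course reached that of Tdo2 or Ddc. Tat, the tyrosine aminotransferase, differed by -0.11 ± 0.45 between days 1 and 14, Hpd, which acts next, by 0.39 ± 0.18, and Fah, the last step, by 0.21 ± 0.27. Qdpr and Gch1, which recycle and make the tetrahydrobiopterin cofactor, differed by 0.25 ± 0.32 and 0.067 ± 0.33, and Gchfr, the regulator of Gch1, by 0.55 ± 0.27. Got1 and Got2, the cytosolic and mitochondrial aspartate aminotransferases, differed by 0.27 ± 0.33 and -0.15 ± 0.29, and Aldh7a1, of lysine breakdown, by -0.17 ± 0.27. In Wistar livers at day 3, Slc3a2, a subunit shared by several amino acid carriers, differed from control by 0.85 ± 0.29 (adjusted p = 0.300), and by 0.46 without Wistar day 3 replicate 2.

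**Figure D3:**
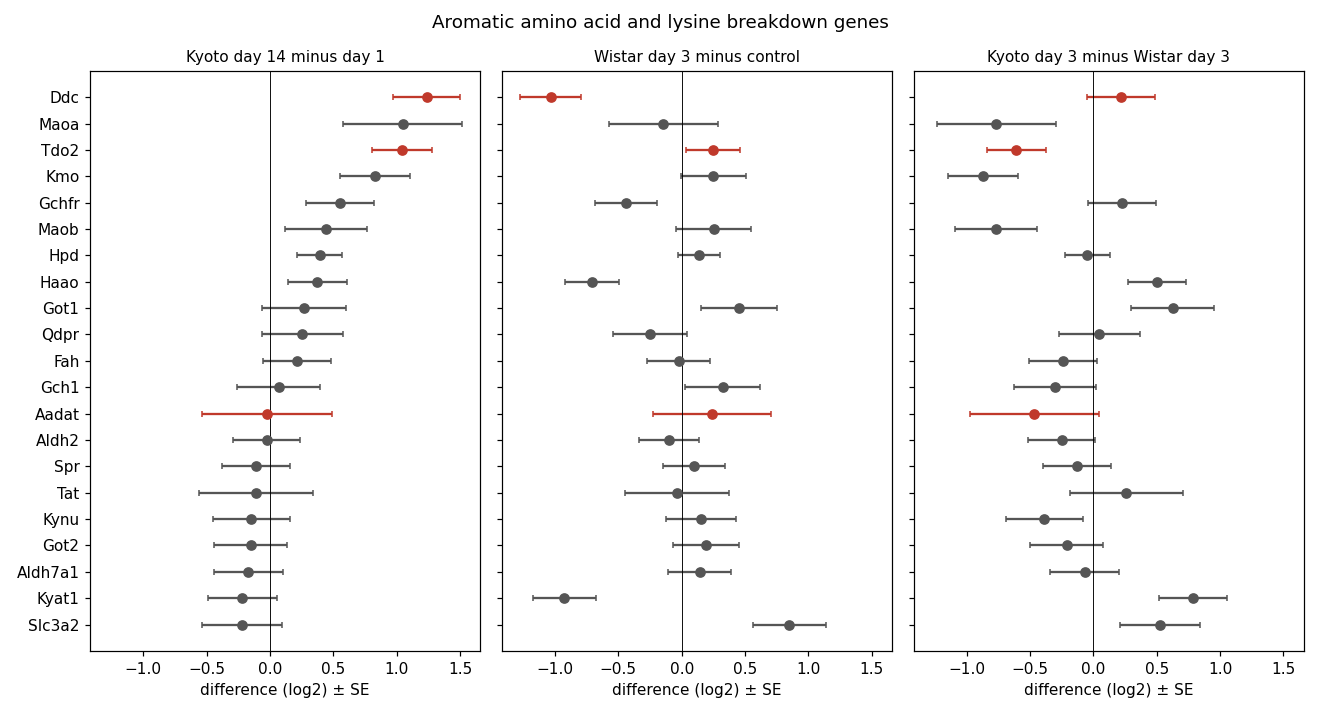
Differences (log2, horizontal axis, points) with standard errors (whiskers) of the 21 tested genes of aromatic amino acid and lysine breakdown in 3 comparisons, ordered by the Kyoto day 14 minus day 1 difference; Tdo2, Ddc and Aadat are red. Ddc (1.24), Maoa (1.05), Tdo2 (1.04) and Kmo (0.83) stand highest in the left panel. Ddc (-1.04) is lowest in Wistar day 3 minus control, and in the other 2 panels none of the points passed over all features. In the left panel Tdo2, Ddc and Aadat were not tested and none of the other points passed.

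Other enzymes of amino acid breakdown give a scale for these values. Of 32 tested, none passed in any comparison, where 0% to 0.681% of all features did. In Kyoto livers 22 of 32 had a higher mean at day 14 than at day 1, with a median of 0.33, among them Hal, the histidine ammonia-lyase, at 1.09 ± 0.26 and Cth, which makes cysteine from cystathionine, at 1.33 ± 0.32. In Wistar livers at day 3, 24 of 32 were above control with a median of 0.33, where 45.2% of all features were above control with a median of -0.039. As the authors scaled the signals it was 19 of 32 with a median of 0.088, and with each array scaled to 1 median 19 of 32 with a median of 0.073. The median over all features was -0.18 and -0.19 under these scalings, with 632 and 601 of 1909 above control. In the same comparison Dao, the D-amino acid oxidase, differed by -1.60 ± 0.36 (adjusted p = 0.0996) and Oat, the ornithine aminotransferase, by 0.98 ± 0.28 (adjusted p = 0.242). Of 10 tested genes known to be induced by glucocorticoids, Tdo2 among them, 6 were higher and 4 lower at Kyoto day 14 than at day 1 (median 0.27), and in Wistar livers 9 of 10 were lower at day 14 than at day 3 (median -0.26), but 6 of 10 under either other scaling. Of all 1909 features 929 were lower in that Wistar comparison as reported, 668 as the authors scaled the signals and 647 with each array scaled to 1 median. None of the 10 passed in the Wistar comparison, where 0% of all features did. In the Kyoto comparison Tdo2 was not tested and none of the other 9 passed, where 0.0524% of all features did.

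By place in the liver lobule, 7 of 8 tested periportal genes had a higher mean at Kyoto day 14 than at day 1 (median 0.60), with Hal as above and Cps1, which starts the urea cycle, at 0.65 ± 0.20. Of 5 tested pericentral genes 2 were higher and 3 lower (median -0.023, and 0.059 as the authors scaled the signals), with Glul, the glutamine synthetase, at -1.78 ± 0.44 and Cyp1a2, a cytochrome P450, at -0.66 ± 0.31. None of either group passed, where 0.0524% of all features did. Glul and Oat of the pericentral group were likewise among the other amino acid enzymes. The summed signal of stellate cell markers was highest where Tdo2 and Ddc were lowest in Kyoto livers. Over 6 of 8 listed markers on the array it ran from 10441 to 12388 at Kyoto day 1. At day 3 it ran from 6044 to 8533 and at day 14 from 8617 to 8708, and Dcn was at the floor in all Kyoto livers. In Wistar livers the same sum was 5070 to 8431 in controls and 8918 to 9719 at day 3, where Ddc was below and Tdo2 above the controls. Single markers were mixed there: of 5 tested, 2 were above control and 3 below (median -0.12), with Sparc at 0.66 ± 0.27 and Col1a2 at -0.48 ± 0.35. Between Kyoto days 1 and 14 all 5 had a lower mean at day 14 (median -0.92). Single markers did not all follow the sum: between Kyoto days 1 and 3, 1 was higher and 4 were lower (median -0.21). They ran from Col1a1 at -1.57 ± 0.60 to Col3a1 at 0.13 ± 0.45. The part of these cells in the values of Tdo2 and Ddc was not tested. Hepatocyte markers summed to 173146 to 182891 at Kyoto day 1 and 166792 to 169315 at day 14.

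The genes whose signal over the 14 arrays was most like each of the 3 were found by Pearson correlation, as a description of arrays that share groups. For Tdo2 they were Vamp3, a vesicle fusion protein (r = 0.840, Spearman 0.657), Pls3, an actin-bundling protein (0.835, 0.749), and Cth (0.824, 0.565). For Ddc they were Acp2, a lysosomal acid phosphatase (0.877, 0.810), Hsd11b1, which activates glucocorticoids inside the cell (0.868, 0.799), and Fam162a (0.815, 0.745). For Aadat they were Pgrmc1, a heme-binding membrane protein (0.881, 0.802), Rpl4, a ribosomal protein (0.838, 0.855), and Vmp1, a protein of autophagy (0.818, 0.705). None of the 3 was among another's most alike: Tdo2 and Ddc had r = 0.513 (Spearman 0.213), Tdo2 and Aadat 0.373 (0.125), and Ddc and Aadat 0.240 (0.020). Ddc stood at place 196 of 1908 features by likeness to Tdo2. After group means were taken out, r was 0.013 between Tdo2 and Ddc and 0.67 between Tdo2 and Aadat.

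**Figure D4:**
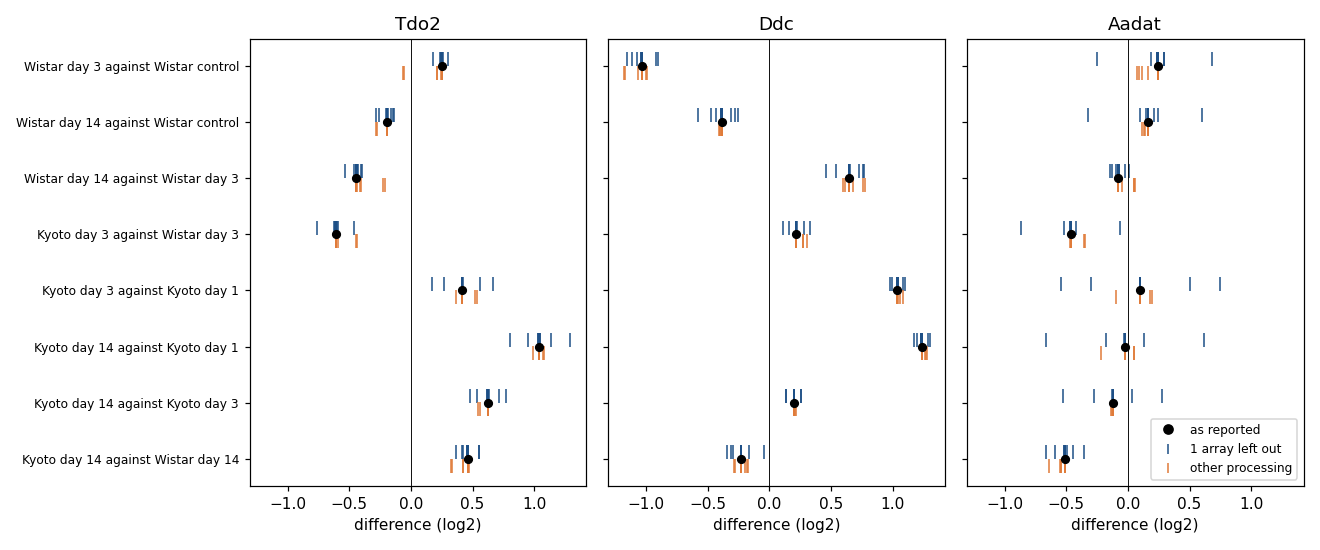
Log2 differences (horizontal axis) of Tdo2, Ddc and Aadat in 8 comparisons (rows) as reported (black points), with 1 array left out at a time (blue ticks) and under other processing (orange ticks). The Ddc ticks stay on 1 side of 0 in all 8 rows, Tdo2 crosses 0 only in Wistar day 3 against control (to -0.067), and Aadat crosses 0 in 6 rows.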

How the data were processed

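Each array's deposited intensity values are linear probe set signals. The submitters' processing notes name MAS5, and neither its version nor its scaling target was stated. Of 4502 rows, 24 control probe sets and 375 rows with a blank on any of 3 arrays were left out. Log2 signals were quantile normalized with limma 3.58.1 (R 4.3.3), signals under the 25th percentile (115) were set to it, the probe set with the highest mean stood for a gene, and the upper 60% of 3181 features, 1909, were tested. One model of 6 group means over all 14 arrays (8 residual degrees of freedom, lmFit and eBayes with an intensity trend) gave 9 comparisons, with Benjamini-Hochberg adjustment over all 1909. It was also run on simulated data with independent noise of equal spread on every array and no outlying array. Its recovery of differences as small as those here is not reported. Alternatives were other scalings, floors, filters, probe set rules, variance settings and blocks, fewer groups, and each array left out. Named genes were the 3 enzymes, set genes of the pathway list, and the 3 features most correlated with each enzyme. In the other amino acid, glucocorticoid and lobule lists they were those past the threshold or else the 2 with the smallest p. Single stellate markers were named outside this rule, after their values were seen. The members and lists were chosen with earlier results of these data known. The number of arrays limits the precision.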

Additional observations from a re-analysis of the deposited data

Results flagged for a closer look

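Between days 3 and 14 of feeding Tdo2 moved in opposite directions in the strains: both Kyoto day 14 arrays lay above both day 3 arrays (0.63 log2), and all 3 Wistar day 14 arrays lay below both day 3 arrays (-0.44). The gap was 1.07 ± 0.32, and 0.77 under either other scaling. The gap was not tested here, because it draws on the Kyoto day 14 arrays through which the gene was noticed. No other tested gene of the pathway list had all its arrays apart in this way. The share of all features that did was not counted, so this does not set Tdo2 apart. Means alone ran up in Kyoto and down in Wistar livers for others too, such as Kmo (0.85 and -0.070), Maoa (0.76 and -0.093), Gch1 (0.30 and -0.39) and Kynu (0.10 and -0.49). The gap was above 0 for 15 of 21 genes of the list (median 0.19) and for 25 of 32 other amino acid genes (median 0.37), against 46.7% of all features. As the authors scaled the signals it was above 0 for 9 of 21 and 19 of 32, against 693 of all 1909 features. Groups of 2 or 3 arrays were too small for a search for single outlying arrays.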

How the results depend on the processing

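No paired analysis was possible because the labels give no replicate numbers. The count of features called, over all genes, moved most. In Wistar day 3 against control (0) it was 1 with every probe set of its own, 18 with array weights, 5 with only the groups compared, and 0 to 6 with 1 array left out; in Wistar day 14 against control (0), 1 with array weights and 0 to 7, the 6 and the 7 without Wistar day 14 replicate 3. In Kyoto against Wistar at day 3 (4) it was 2 without a floor, 1 without a filter, 1 with the upper 40% of features, 2 with every probe set, 45 with array weights, 1 with the lot batch block, 2 with a block for the blank rows (chosen after seeing the data), 45 with only the groups compared, and 0 to 33, the last without the array labelled Wistar control 2. In Kyoto day 3 against day 1 (0) it was 2 without a filter and 0 to 80. In Kyoto day 14 against day 1 (1) it was 3 without a filter, 4 with every probe set, 0 with array weights or only the groups compared, and 0 to 162; the 80 and the 162 are without Kyoto day 1 replicate 2, which leaves replicate 1 alone and assumed to vary like the other groups. In Kyoto day 14 against day 3 (0) it was 1 without a filter, 1 with array weights and 0 to 1. In Kyoto against Wistar at day 14 (13) it was 4 without a floor, 5 with a floor at the 10th percentile, 0 without a filter, 6 with the upper 40%, 6 with every probe set, 5 without an intensity trend, 32 with array weights, 0 with the lot batch block, 2 with the blank rows block, 27 with only the groups compared, and 0 to 29. The causes were not tested.

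Tdo2 in Wistar day 3 against control turned to -0.052 as the authors scaled the signals and -0.067 with each array at 1 median; its strain by time gap was 0.77 under either. With 1 array left out Tdo2 ran from 0.17 to 0.66 for Kyoto day 3 against day 1 and from 0.80 to 1.29 for day 14 against day 1. Ddc in Wistar day 3 against control passed with array weights (-0.997). Aadat in Wistar day 14 against day 3 turned to 0.047 as the authors scaled the signals, 0.060 at 1 median and 0.050 with the blank rows block, and ran from -0.14 to 0.0053 with 1 array left out. Its range was -0.25 to 0.68 for Wistar day 3 against control, -0.33 to 0.60 for Wistar day 14 against control, -0.54 to 0.74 for Kyoto day 3 against day 1 and -0.67 to 0.62 for Kyoto day 14 against day 1.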
